A study of Mus musculus with 24 samples.

Results

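Bptf, Pbrm1 and Mll5 are 3 genes for chromatin proteins, each with an exon whose use differed between cells with normal and with slow RNA polymerase II. The genes were chosen by the readout itself: an earlier analysis of these data had named 1 exon of Bptf from its percent spliced in (PSI, the share of transcripts that keep an exon) in ESCs and NPCs, 1 of Pbrm1 in NPCs and 1 of Mll5 in neurons, so those differences are described below without a test. Together the genes carried 48 of the 54141 exon events in the splicing table (16 in Bptf, 22 in Pbrm1 and 10 in Mll5), and they are 3 of the 21553 genes with counts. Mll5 is the name in the deposited tables for the gene now written Kmt2e. The RNA-seq covered mouse ESCs and cells differentiated from them, either wild type (WT, wt/wt at Polr2a) or homozygous for the R749H mutation in Polr2a, the largest subunit of RNA polymerase II (slow/slow), with 3 replicates in each of 8 groups. ESCs were grown in 2i medium. NPCs were collected at day 7, PSA-NCAM+ cells were purified with beads at day 10, and mature neurons were replated at day 7 and grown for another 14 days. The slow/slow ESCs were made by targeting both alleles of Polr2a in turn, the sources used here do not give the number of clones, and differentiation was started from 30000 slow/slow or 10000 WT cells per cm2, so genotype, line and, after the ESC stage, plating density cannot be told apart.

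Chromatin readers are proteins whose domains bind modified histone tails and so bring remodelling or modifying complexes to nucleosomes. Bptf is the large subunit of NURF, an ISWI-type nucleosome remodelling complex, and binds methylated and acetylated histones through its PHD finger and bromodomain. Pbrm1 (polybromo, also called BAF180) is the bromodomain-rich subunit that marks the PBAF form of the SWI/SNF remodellers. Mll5 holds a PHD finger and a SET domain and is known for roles in the cell cycle and in blood formation. In neural differentiation, remodeller subunits are known to be exchanged as progenitors become neurons, and many genes of this class make several isoforms.

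The exon of each gene that the choice rested on, called its lead exon here, was a cassette exon in coding sequence. The Bptf exon of 189 nt lies at chr11:106956316-106956504 in mm9, the build of the splicing table, on the minus strand. The Pbrm1 exon of 156 nt lies at chr14:31927035-31927190 and the Mll5 exon of 126 nt at chr5:23006269-23006394, both on the plus strand. At the stage that named the gene, the exon with the next largest difference in the same gene was 34.3 points lower in slow/slow cells in Bptf (174 nt, in NPCs), against 74.5 points lower for the lead exon (-34.3 and -74.5 points as slow/slow minus WT). It was 10.1 points higher in Pbrm1 (45 nt, in NPCs) among tested exons, against 48.3 points for the lead exon, and it was -2.37 points in Mll5 (255 nt, in neurons), against 49.0 points for the lead exon.

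The sequences below are those of the 3 lead exons and of the 4 other exons with a called difference that could be matched to the annotation, since these are the stretches that enter or leave the message. The exon is in capitals, and the 15 bases on each side in lower case belong to the neighbouring exons of the transcript named. They come from the GENCODE vM21 transcripts, whose build is GRCm38. No coordinates were converted: 42 of the 48 exons were matched by their length and by the distances to both neighbouring exon ends. In GRCm38 the 3 lead exons lie at chr11:107095002-107095190 (exon 5 of 30 in Bptf-203), chr14:31113849-31114004 (exon 27 of 30 in Pbrm1-203) and chr5:23500451-23500576 (exon 24 of 26 in Kmt2e-201). In Bptf-203 the 189-nt exon is followed by another cassette exon of 186 nt.
Bptf 189-nt exon: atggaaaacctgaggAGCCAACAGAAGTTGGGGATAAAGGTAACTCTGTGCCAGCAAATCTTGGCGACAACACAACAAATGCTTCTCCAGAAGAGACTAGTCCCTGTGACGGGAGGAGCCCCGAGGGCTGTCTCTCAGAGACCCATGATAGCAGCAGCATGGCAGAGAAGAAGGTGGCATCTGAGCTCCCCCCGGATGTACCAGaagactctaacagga
Pbrm1 156-nt exon: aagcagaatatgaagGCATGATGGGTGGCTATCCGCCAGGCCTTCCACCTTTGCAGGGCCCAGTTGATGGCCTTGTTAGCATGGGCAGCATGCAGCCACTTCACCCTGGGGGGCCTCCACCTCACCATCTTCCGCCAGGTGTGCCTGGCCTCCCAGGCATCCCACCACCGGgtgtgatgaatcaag
Mll5 126-nt exon: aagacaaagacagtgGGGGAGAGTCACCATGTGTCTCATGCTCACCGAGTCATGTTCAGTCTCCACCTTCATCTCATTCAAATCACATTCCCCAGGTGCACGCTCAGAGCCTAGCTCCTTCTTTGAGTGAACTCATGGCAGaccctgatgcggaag
Bptf 174-nt exon: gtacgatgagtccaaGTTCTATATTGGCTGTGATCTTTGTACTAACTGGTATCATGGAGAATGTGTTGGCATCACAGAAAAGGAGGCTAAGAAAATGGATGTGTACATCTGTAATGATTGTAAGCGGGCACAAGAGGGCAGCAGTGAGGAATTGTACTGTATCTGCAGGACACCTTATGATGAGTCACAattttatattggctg
Bptf 162-nt exon: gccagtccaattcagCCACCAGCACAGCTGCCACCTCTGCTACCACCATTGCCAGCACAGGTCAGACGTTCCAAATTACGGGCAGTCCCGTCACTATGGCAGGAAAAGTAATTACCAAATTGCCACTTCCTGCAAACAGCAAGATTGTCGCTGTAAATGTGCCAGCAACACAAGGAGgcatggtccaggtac
Pbrm1 96-nt exon: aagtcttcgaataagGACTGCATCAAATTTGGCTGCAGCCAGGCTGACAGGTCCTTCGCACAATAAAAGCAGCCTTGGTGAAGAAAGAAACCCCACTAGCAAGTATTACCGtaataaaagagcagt
Pbrm1 45-nt exon: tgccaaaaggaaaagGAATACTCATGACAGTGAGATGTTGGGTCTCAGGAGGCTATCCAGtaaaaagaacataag

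The other 4 lie at chr11:107044492-107044665 (Bptf, 174 nt), chr11:107062050-107062211 (Bptf, 162 nt), chr14:31045330-31045425 (Pbrm1, 96 nt) and chr14:31056236-31056280 (Pbrm1, 45 nt). All 7 have lengths that are multiples of 3, lie wholly within coding sequence and hold 0 in-frame stop codons in the transcript named, so each can be kept or skipped without a change of reading frame. The lead exons encode 63 residues in Bptf, 52 in Pbrm1 and 42 in Mll5. Their GC content was 54.5%, 64.7% and 51.6%. The 174-nt exon of Bptf resembles the exon that follows it in Bptf-208: without gaps, 90 of the 174 bases are identical (51.7%), the highest share of the 42 matched exons, with the other 41 at 17.4% to 32.6%; the comparison was made after the exon's values were seen. Of all exons tested in the 4 genotype comparisons, 40.8% to 42.1% had a length that was a multiple of 3, and of those called 61.1% to 66.4% did.

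Libraries held 32974432 to 104466886 counts. Marker genes set the neurons apart from the other stages but marked the NPCs and PSA-NCAM+ cells poorly. In CPM (counts scaled to a common library size), 6 pluripotency genes summed to 5336 to 6121 in ESCs and to 204 to 265 in neurons, and were still at 2124 to 2211 in WT and 1318 to 1448 in slow/slow NPCs, and at 1417 to 1938 in WT and 870 to 940 in slow/slow PSA-NCAM+ cells. The 5 neuronal genes with counts (of 6 listed) summed to 2396 to 2580 CPM in WT and 2235 to 2391 CPM in slow/slow neurons. In slow/slow neurons the means of Snap25 (208.3 to 60.2 CPM), Syn1 (220.7 to 60.3), Rbfox3 (36.6 to 19.7) and Dcx (1117.6 to 982.6) were lower than in WT. Tubb3 was higher (928.0 to 1190.6). The sums were 45.4 to 57.7 CPM in WT and 123 to 152 CPM in slow/slow ESCs. They were 27.9 to 28.2 CPM in WT and 105 to 125 CPM in slow/slow NPCs, and 23.0 to 36.0 CPM in WT and 54.9 to 254 CPM in slow/slow PSA-NCAM+ cells. The 3 genes for NCAM and its polysialyltransferases summed to 26.7 to 31.1 CPM in WT and 36.8 to 61.9 CPM in slow/slow PSA-NCAM+ cells and were higher in neurons, at 715 to 745 CPM in WT and 395 to 418 CPM in slow/slow cells. The 2 progenitor genes with counts (of 3 listed) summed to 36.9 to 38.3 CPM in WT and 120.0 to 157 CPM in slow/slow NPCs, and were also higher in neurons, at 247 to 296 CPM in WT and 415 to 470 CPM in slow/slow cells. Of other cell types, 4 endoderm genes summed to 114 to 147 CPM in NPCs. In PSA-NCAM+ cells they summed to 88.5 to 135 CPM in WT and 53.5 to 130 CPM in slow/slow cells. The 3 mesenchyme genes summed to 176 to 208 CPM in WT and 79.3 to 113 CPM in slow/slow NPCs. Their sums were 369 to 508 CPM in WT and 474 to 746 CPM in slow/slow PSA-NCAM+ cells. In neurons they were 243 to 316 CPM in WT and 480 to 508 CPM in slow/slow cells. The 4 glial genes summed to 56.9 to 78.2 CPM in WT neurons against 4.39 to 5.40 CPM in slow/slow neurons, where 3 of the 4 were under 1 CPM. The part of these cell types in the values below was not tested. In bulk samples, fewer cells of a type and less RNA per cell cannot be told apart.

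The first library of slow/slow PSA-NCAM+ cells stood apart from the other two. On a scale where 0 is the mean of the WT libraries of a stage and 1 that of the slow/slow libraries, each without the library placed, it lay at 0.449 over 12367 genes and at 0.371 over 17789 exons, and its expression correlated as well with WT libraries (mean r = 0.944 across genes) as with its own group (mean r = 0.943). The first WT library of that stage also correlated less with its group (0.970) than the other two did, and lay at 0.459 over exons. Some values for PSA-NCAM+ cells are therefore given by library. The differences of the Bptf and Pbrm1 lead exons and of expression are also given without these 2 libraries. That setting was added after the data were examined.

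The mean PSI of the 189-nt exon of Bptf was lower in slow/slow cells at every stage. The difference was called in neurons, a stage the choice did not use. Neurons were differentiated from the ESCs, a stage that chose the exon, so this call is not independent of the choice. In ESCs PSI was 69.1%, 62.0% and 63.8% in the 3 WT libraries and 18.8%, 22.4% and 18.0% in the slow/slow libraries. In NPCs, where the difference was largest, it was 86.8%, 88.6% and 88.9% in WT and 12%, 10.3% and 18.5% in slow/slow libraries. The genotypes did not overlap in either stage, and these 2 differences, -45.2 and -74.5 points, are the ones the choice rested on. In PSA-NCAM+ cells the WT libraries read 64.0%, 52.8% and 74.5% and the slow/slow libraries 53.8%, 19.9% and 19.4%. Here the groups overlapped through the first slow/slow library, and the difference in means of -32.8 points missed the threshold (posterior probability of the sign 0.948, called above 0.95). Within each same-numbered pair the slow/slow library was the lower one, and limma with the replicate number as a block gave FDR = 0.0991 (0.479 without it). At this stage limma called 49 of all 24333 exons with the block and 0 without it. Without the first library of each genotype the exon was 44.0 points lower in slow/slow cells, a called difference (probability 1). That setting was added after the data were examined and drops the slow/slow library that overlapped WT, so this call is no independent support. In neurons, a stage the choice did not use, WT libraries read 78.2%, 70.5% and 73.9% and slow/slow libraries 46.0%, 48.7% and 59.4%. The mean fell from 74.2% ± 3.88 (SD, n = 3) to 51.3% ± 7.06, by 22.8 points, with a probability of 0.998. Between 72 and 579 reads stood behind each value, and the widest 95% Wilson interval, covering counting error only, ran from 49.3% to 68.4%.

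**Figure D1:**
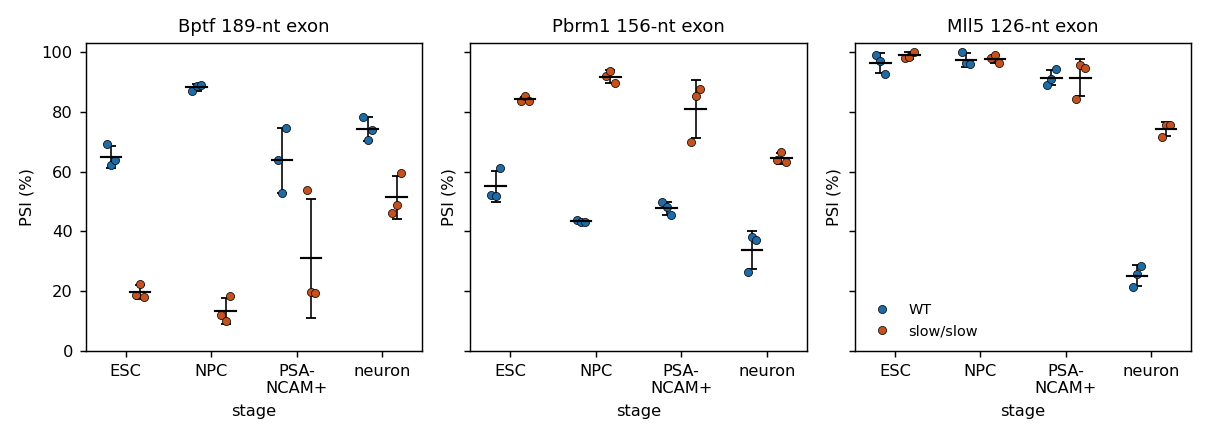
PSI (%) of the lead exons of Bptf (189 nt), Pbrm1 (156 nt) and Mll5 (126 nt) by stage, with 1 point per library (blue WT, orange slow/slow), the mean as a bar and the SD as whiskers (n = 3). The Bptf exon is lower and the Pbrm1 exon higher in slow/slow cells in each stage, apart from the first slow/slow PSA-NCAM+ library at 53.8% for Bptf, and the Mll5 exon separates the genotypes in neurons alone among the 4 stages plotted.

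Along the WT course the 189-nt exon of Bptf went from 65.0% ± 3.67 in ESCs to 88.1% ± 1.15 in NPCs, 63.8% ± 10.8 at the PSA-NCAM+ stage and 74.2% ± 3.88 in neurons. In slow/slow cells the course was 19.8% ± 2.33, 13.6% ± 4.31, 31.0% ± 19.7 and 51.3% ± 7.06, so the highest WT stage was the lowest slow/slow stage. Since each WT step runs through a stage that chose the exon, these steps carry no test. The intron event that spans the exon, 13015 nt long, was retained in 0% to 11.2% of transcripts in any library.

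The 174-nt exon of Bptf moved along the WT course and also differed between genotypes in NPCs. WT libraries read 51.6%, 43.2% and 47.7% in ESCs, 73.4%, 74.3% and 82.2% in NPCs, 48.8%, 46.1% and 55.7% at the PSA-NCAM+ stage and 68.0%, 60.4% and 66.5% in neurons. The rise of 29.1 points from ESCs to NPCs was called (probability 1), as was the fall of 26.4 points from NPCs to PSA-NCAM+ cells (probability 0.999966). The neurons differed from the NPCs by -11.7 points, a called difference (probability 0.973) that was lost without the third WT NPC library (-8.88 points, under the minimum of 10) or the second WT neuron library (-9.37 points). With limma neither of the last 2 steps was called (FDR = 0.126 and 0.0747). Of all 24738 exons tested from WT NPCs to PSA-NCAM+ cells, limma called 0. Slow/slow NPC libraries read 44.2%, 42.1% and 40.6%, a difference of -34.3 points (76.6% ± 4.84 against 42.3% ± 1.82, probability 1). That comparison also named Bptf through its other exon, so it is not independent of the choice of the gene. In ESCs slow/slow libraries read 43.4%, 42.6% and 36.9% and in PSA-NCAM+ cells 48.7%, 38.3% and 39.7%, overlapping WT at both stages, and neither difference was called. In neurons the slow/slow libraries read 69.0%, 69.1% and 67.8% and the mean differed from WT by 3.68 points. The genotype difference in neurons minus that in NPCs was 38.0 points (FDR = 0.000396, limma on the logit of the reads), a test added after the values were seen.

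The 162-nt exon of Bptf was used mainly in neurons. In WT it was at 1.56% to 6.76% in the 9 libraries of the 3 earlier stages and at 31.7%, 31.5% and 27.1% in neurons, a rise over NPCs of 27.7 points (2.40% ± 1.3 to 30.1% ± 2.62, probability 1). Slow/slow neurons read 18.0%, 19.4% and 18.0%, with no overlap, and differed from WT neurons by -11.6 points (probability 0.998). In NPCs the slow/slow libraries, at 7.22%, 6.71% and 5.69%, lay above the WT libraries, by 4.14 points, which is under the minimum for a call. The genotype difference in neurons minus that in NPCs was -15.7 points (FDR = 0.00194, limma).

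Of the other 13 exon events of Bptf, 8 were above 95% in every group and were not called in any comparison. The 5 others never passed the filters on coverage and junction balance. Among them were the 186-nt exon, which lies next to the lead exon, and a 191-nt event. The 186-nt exon read 55.7%, 50.2% and 49.3% in WT neurons and 31.1%, 31.4% and 32.8% in slow/slow neurons, and its group means were at most 10.3% in the earlier stages. The 191-nt event, a longer form of an exon further on, read 47.1%, 44.5% and 43.8% in WT and 24.04%, 26.2% and 28.7% in slow/slow neurons. Neither passed the filters in any of the 7 comparisons, for junction balance in the neuron comparison and for coverage or balance in the others.

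The 156-nt exon of Pbrm1 was used more in slow/slow cells in all 4 stages. ESCs, a stage the choice did not use, read 52.1%, 51.9% and 61.1% in WT and 83.6%, 85.1% and 83.6% in slow/slow libraries, a rise of 29.1 points (55.0% ± 5.28 to 84.1% ± 0.850, probability 1). In NPCs, the stage that chose it, WT libraries read 43.8%, 43.3% and 43.0% and slow/slow libraries 92.0%, 93.6% and 89.5%, 48.3 points higher. PSA-NCAM+ cells read 49.8%, 48.0% and 45.5% in WT and 69.8%, 85.3% and 87.5% in slow/slow libraries. There was no overlap, also with the first slow/slow library, which was the lowest, and the rise was 33.1 points (probability 0.999788), or 39.6 points without the first library of each genotype. With limma on the logit the PSA-NCAM+ difference was not called (FDR = 0.356), and with the replicate number as a block it was (FDR = 0.0389). Of all 24333 exons tested there, limma called 0 without the block and 49 with it. Neurons read 26.5%, 38.0% and 37.1% in WT and 63.8%, 66.5% and 63.1% in slow/slow libraries, a rise of 30.6 points (33.9% ± 6.40 to 64.5% ± 1.82, probability 1). Each value rested on 142 to 1097 reads.

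Along the WT course the mean of this exon was 55.0% ± 5.28 in ESCs, 43.4% ± 0.411 in NPCs, 47.8% ± 2.18 at the PSA-NCAM+ stage and 33.9% ± 6.40 in neurons, steps that carry no test because the NPC values chose it. The exon lies 6538 nt from the upstream exon it joins in the transcript shown, a stretch that holds a cassette exon of 165 nt. Introns of 3269 nt, from that cassette exon to this one, and of 3008 nt, after this one, were retained in 0.85% to 11.3% of transcripts. Retention over the whole upstream stretch is not given. The 165-nt exon joins the same upstream exon in the annotation. It had group means between 28.2% and 41.0% and was not called in any of the 7 comparisons. Its largest genotype difference was 7.69 points, in NPCs (probability 0.909).

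Other exons of Pbrm1 differed mainly between WT neurons and WT NPCs. The 96-nt exon fell from 61.0% ± 1.26 to 26.2% ± 5.14, by 34.8 points (probability 1), with libraries at 62.4%, 60% and 60.6% in NPCs and 25%, 31.8% and 21.7% in neurons. In ESCs and PSA-NCAM+ cells it was at 41.6% to 58.9% in WT. The 45-nt exon read 8.72%, 11.8% and 16.2% in WT NPCs and 34.9%, 35.6% and 36.0% in WT neurons. It rose from 12.2% ± 3.78 to 35.5% ± 0.586, by 23.3 points (probability 0.999831). The 104-nt event, near the start of the gene and not matched to the annotation, read 22.5%, 23.4% and 21.0% in WT NPCs and rose from 22.3% ± 1.22 to 66.1% ± 6.99, by 43.8 points (probability 1).

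In slow/slow neurons 2 of these 3 exons of Pbrm1 lay past the call threshold on the side of the progenitor values. The 96-nt exon read 34.1%, 40.5% and 40.7%, 12.3 points above WT neurons (probability 0.959). The 104-nt event read 49.8%, 52.4% and 54.7% against 74.2%, 62.2% and 62.0% in WT, a difference of -13.8 points (probability 0.962). Both calls are near the threshold: limma on the logit gave FDR = 0.105 and 0.111, and without the first WT neuron library the 104-nt difference was -9.80 points and the 96-nt probability 0.939. The 96-nt call was also lost without the third WT library (probability 0.934), the second slow/slow library (0.939) or the third slow/slow library (0.948). The 45-nt exon read 26.3%, 26.0% and 31.7% in slow/slow neurons, below all WT neurons (34.9% to 36.0%), a difference of -7.49 points that is under the minimum for a call. In slow/slow NPCs the 45-nt exon read 27.7%, 18.8% and 20.5% and the 96-nt exon 47.1%, 53.8% and 54.6%, on the opposite sides of WT from those in neurons. The 45-nt exon was 10.1 points higher in slow/slow cells and the 96-nt exon differed by -9.17 points, neither called. The genotype difference in neurons minus that in NPCs was 21.4 points for the 96-nt exon (FDR = 0.0201, limma) and -17.6 points for the 45-nt exon (FDR = 0.0224).

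**Figure D2:**
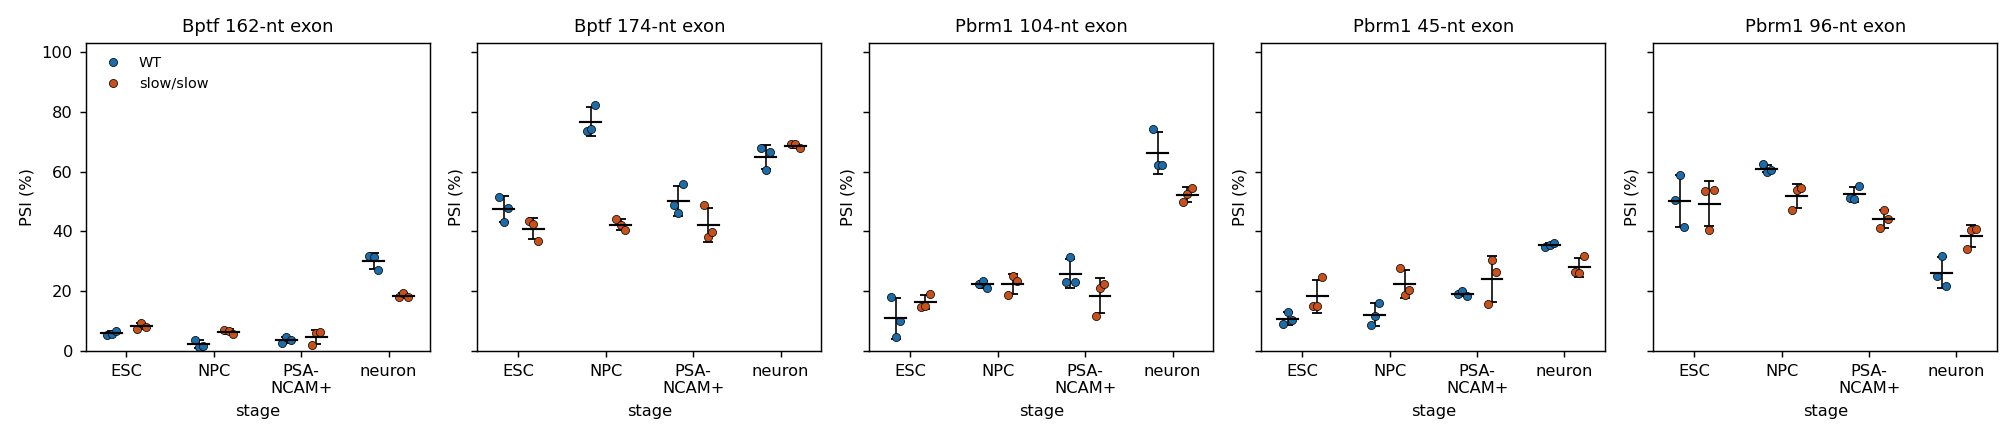
PSI (%) of the 5 other exons of Bptf and Pbrm1 called in 1 or more of the 7 comparisons, by stage, with 1 point per library (blue WT, orange slow/slow), the mean as a bar and the SD as whiskers (n = 3). The 174-nt exon of Bptf separates the genotypes in NPCs, while the 162-nt exon of Bptf and the 104-nt event of Pbrm1 are highest in WT neurons.

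Of the remaining Pbrm1 events, 15 were above 95% in every group, the 153-nt event was never tested and ranged from 87.9% to 100%, and the 140-nt event, tested in 2 comparisons, was 12.4 points higher in slow/slow neurons with a probability of 0.934, just under the threshold. In ESCs and NPCs, where its coverage did not allow a test, it differed by -11.1 and -12.7 points.

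The 126-nt exon of Mll5 was close to constitutive until the neuron stage. WT libraries read 99.0%, 97.0% and 92.6% in ESCs, 100%, 96.2% and 95.8% in NPCs and 89.0%, 90.9% and 94.1% in PSA-NCAM+ cells, and the slow/slow libraries of these stages lay between 84.2% and 100%. None of the 3 genotype differences (2.56, 0.287 and 0.0367 points) was called, and neither were the WT steps from ESCs to NPCs and from NPCs to PSA-NCAM+ cells. In neurons WT libraries read 21.6%, 25.7% and 28.6% and slow/slow libraries 71.6%, 75.6% and 75.7%. This is the difference that chose the exon: the mean was 25.3% ± 3.54 in WT and 74.3% ± 2.33 in slow/slow neurons, 49.0 points higher. From NPCs to neurons the exon thus changed by -72.1 points in WT, and in slow/slow cells the means were 97.6% and 74.3%. Neuron values rested on 318 to 942 reads, and the fewest at any stage were 64.

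The Mll5 exon sits between 2 short introns, of 106 and 150 nt. Retention of the first was 0% to 4.23% and of the second 0.58% to 6.25% over the 24 libraries, with overlapping ranges in WT and slow/slow neurons. A form of the exon shorter by 46 nt made up at most 1.16%. No other exon of Mll5 was called in any comparison. Of the 9 others, 4 were above 95% in every group and the 167-nt event was never tested. The group means of the remaining 4 were 77.7% to 91.1% (255 nt), 6.80% to 22.8% (73 nt), 0.97% to 6.28% (115 nt) and 92.9% to 100% (39 nt).

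**Figure D3:**
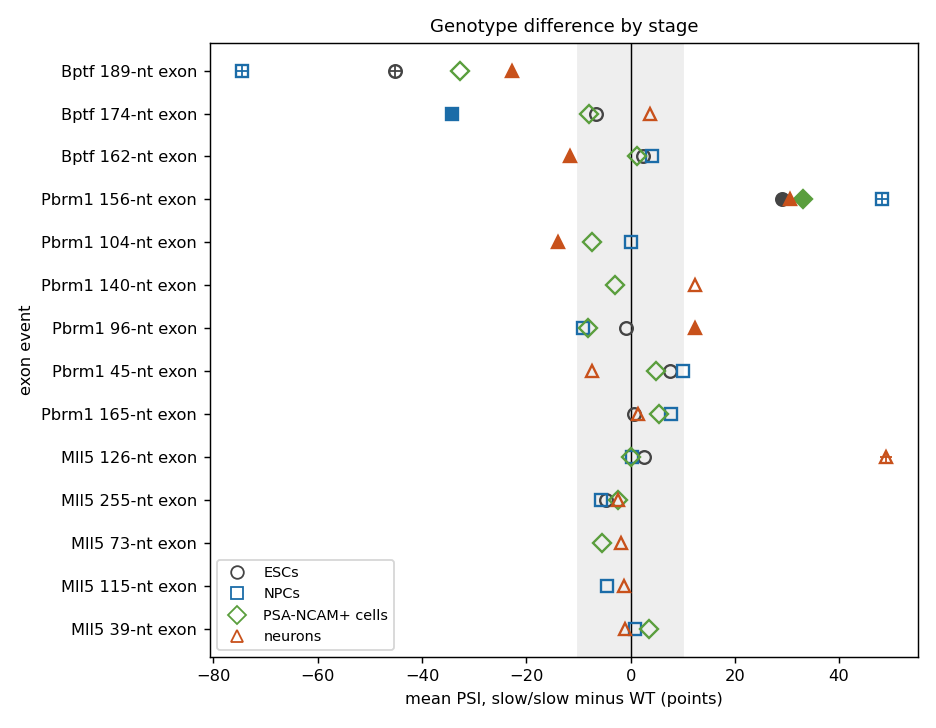
Difference in mean PSI (slow/slow minus WT, points) for the 14 tested exon events that were neither above 95% nor below 5% in every group, with 1 symbol per stage where the event passed the filters. Filled symbols are called, open symbols are not, symbols with a cross chose the exon and carry no test, and the grey band marks differences up to 10 points. The Bptf 189-nt exon lies left of 0 and the Pbrm1 156-nt exon right of 0 in all 4 stages, and the Mll5 126-nt exon leaves the band in neurons.

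Over all exons of the 3 genes, the calls were counted without the 4 differences that chose a lead exon (3 before the neuron stage and 1 in neurons). Of the exons left, 1 of 34 was called in ESCs, the lead exon of Pbrm1, where 0.809% of all exons were. In NPCs 1 of 36 was called, against 2.93% of all exons. It was the 174-nt exon of Bptf, in the comparison that also named this gene. In PSA-NCAM+ cells it was 1 of 40, again the lead exon of Pbrm1, against 0.966%, and 3 without the first library of each genotype (the 156-nt exon of Pbrm1 with the 189-nt and 174-nt exons of Bptf). In neurons 5 of 40 were called, 2 higher and 3 lower, against 3.55%. These 5 were exons of Bptf and Pbrm1, among them both genes' lead exons, which genotype differences at earlier stages had chosen. The counts of genotype calls are therefore not independent of the choice. Without the first WT neuron library 3 were called. In the WT course a lead exon was left out of each step through a stage that chose it. Of the exons left, 1 of 33 was called from ESCs to NPCs (2.42% of all exons) and 1 of 35 from NPCs to PSA-NCAM+ cells (1.36%). Between NPCs and neurons, where every lead exon was left out, 5 of 35 were called (6.48%). Lead exons were also left out for the difference between the genotype effects in neurons and NPCs. There 4 of 35 member exons and 3.48% of all exons were called. Of the 14 exons that were neither above 95% nor below 5% in every group, 10 had a length that was a multiple of 3.

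A list of other genes for chromatin readers (bromodomain, PHD, chromodomain and PWWP proteins) is set beside them. In slow/slow ESCs 3 of its 357 tested exons were called (0.84%), all lower. The NPC comparison called 14 of 413 (3.39%, with 3 higher and 11 lower). The PSA-NCAM+ comparison called 4 of 449 (0.891%, 2 higher and 2 lower), and the neuron comparison 19 of 436 (4.36%, 11 higher and 8 lower). In WT 10 of 373 were called from ESCs to NPCs (2.68%), 8 of 440 from NPCs to PSA-NCAM+ cells (1.82%) and 32 of 433 between NPCs and neurons (7.39%). These shares lie near those over all exons.

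The PSI patterns most like the lead exons over the 24 libraries are named here by Pearson's r. Among 17789 exons covered in every library, the Bptf exon was most like an 81-nt exon of Nfya (Pearson r = 0.960), a 24-nt exon of Csnk1g3 (0.936) and a 118-nt exon of Chtf8 (0.917). The Pbrm1 exon was most like exons of Raly (72 nt, r = 0.922) and D19Wsu162e (48 nt, 0.917). The Mll5 exon was most like exons of Sugp2 (87 nt, r = 0.989), Mtap4 (222 nt, 0.988) and Macf1 (9 nt, 0.988). All points share the same libraries and stages, so these values are descriptions.

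The messages of the 3 genes also differed in amount, mainly before the neuron stage. In NPCs, slow/slow cells had more of all 3 messages. Pbrm1 was at 63.0, 64.1 and 63.4 CPM in WT and 106, 124 and 125 CPM in slow/slow NPCs, a log2 change of 0.90 ± 0.12 (SE; FDR = 4.99e-06, edgeR quasi-likelihood test). Bptf was at 190.0, 209 and 200.4 CPM in WT and 284, 297 and 290.5 CPM in slow/slow NPCs (log2 change 0.54 ± 0.09, FDR = 4.75e-05). Mll5 was at 41.3, 43.3 and 42.0 CPM in WT and 50.4, 58.7 and 59.1 CPM in slow/slow NPCs (0.41 ± 0.09, FDR = 0.000491). In none of the 3 genes did the genotypes overlap, and the share of all genes without overlap was not computed. In NPCs 56.7% of all genes tested were called, 29.3% higher and 27.4% lower, so a call on its own is common.

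In ESCs Pbrm1 and Bptf were also higher in slow/slow cells. Pbrm1 was at 63.2, 57.9 and 48.1 CPM in WT and 93.7, 77.7 and 86.2 CPM in slow/slow ESCs (0.61 ± 0.12 on the log2 scale, FDR = 0.000526, edgeR). Bptf was at 213, 200 and 175 CPM in WT and 264, 220 and 235 CPM in slow/slow ESCs (0.29 ± 0.09, FDR = 0.0147), a call that was lost without the third WT library (FDR = 0.0712) or the first slow/slow library (0.0721). Mll5 overlapped between genotypes and was not called (36.2 ± 3.81 against 34.9 ± 2.89 CPM, SD, n = 3; log2 change -0.05, FDR = 0.67). Of all genes, 40.4% were called in ESCs, 18.5% higher and 21.9% lower.

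In PSA-NCAM+ cells the 3 genes were again higher in slow/slow libraries. Pbrm1 was at 80.1, 93.3 and 95.6 CPM in WT and 130, 198 and 158 CPM in slow/slow cells (0.86 ± 0.12 on the log2 scale, FDR = 7.17e-06, edgeR). Mll5 rose from 52.3 ± 4.57 to 69.9 ± 3.93 CPM (0.42 ± 0.09, FDR = 0.000357). Bptf rose from 235 ± 10.1 to 300 ± 41.6 CPM (0.35 ± 0.09, FDR = 0.00255). Without the first library of each genotype the 3 changes were 0.92, 0.42 and 0.44. In an edgeR fit of the 6 PSA-NCAM+ libraries alone, neither Mll5 nor Bptf was called. With the replicate number as a block in that fit, added after seeing the data, Bptf missed the threshold (log2 change 0.32, FDR = 0.0507, edgeR). Pbrm1 and Mll5 then passed it (FDR = 0.00598 and 0.0382, edgeR). Of all genes 56.7% were called, 28.6% higher and 28.1% lower.

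In neurons the rise was gone. Bptf was at 196, 197 and 204 CPM in WT and 179, 170 and 160 CPM in slow/slow neurons, a fall of 0.23 on the log2 scale (SE 0.09, FDR = 0.0368, edgeR). That call is weak, since it was lost with upper-quartile scaling (log2 change -0.089, FDR = 0.433) and without any 1 of 5 of the 6 libraries, all but the first slow/slow one. Mll5 was at 207, 202 and 202 CPM in WT and 183, 187 and 169 CPM in slow/slow neurons, without overlap, and missed the threshold (log2 change -0.18, FDR = 0.0838). Pbrm1 overlapped (118 ± 2.80 against 115 ± 5.30 CPM, log2 change -0.04, FDR = 0.799), and its sign turned with upper-quartile scaling (0.10). Of all genes 51.9% were called, 23.4% higher and 28.4% lower, and upper-quartile scaling raised the median gene by 0.14 (log2) in this comparison.

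The genotype effect in neurons minus that in NPCs was -0.94 ± 0.17 for Pbrm1 (log2, SE; FDR = 0.000127, edgeR interaction), -0.77 ± 0.13 for Bptf (FDR = 4.19e-05) and -0.59 ± 0.12 for Mll5 (FDR = 0.000401). These tests were added after the values were seen. Over all genes 55.1% were called by this test. With upper-quartile scaling the 3 values were -0.76, -0.59 and -0.41, each still past the threshold (FDR = 0.00134, 0.000686 and 0.0111).

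**Figure D4:**
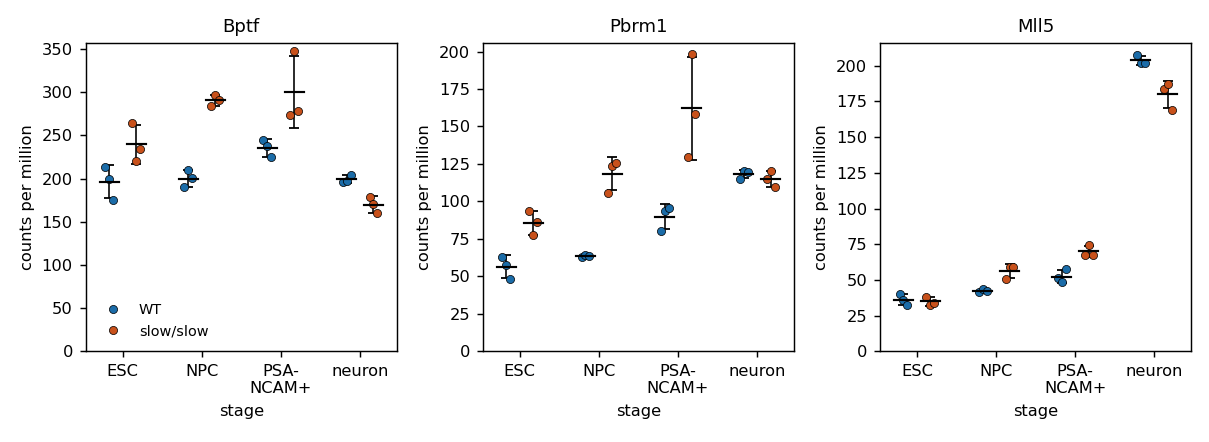
CPM (TMM-scaled) of Bptf, Pbrm1 and Mll5 by stage, with 1 point per library (blue WT, orange slow/slow), the mean as a bar and the SD as whiskers (n = 3). In NPCs and PSA-NCAM+ cells the slow/slow libraries lie above the WT libraries for all 3 genes, and Mll5 rises to 202 CPM or more in WT neurons.

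Along the WT course the 3 genes behaved differently. Mll5 rose from 42.2 ± 1.04 CPM in NPCs to 204 ± 3.06 CPM in neurons (log2 change 2.27 ± 0.09, FDR = 5.3e-15, edgeR), the stage at which its lead exon was mostly skipped in WT. Pbrm1 rose from 63.5 ± 0.582 to 118 ± 2.80 CPM (0.90 ± 0.12, FDR = 1.08e-06). Bptf was at 200 ± 9.65 CPM in NPCs and 199 ± 4.38 CPM in neurons, and was not called (log2 change -0.01, FDR = 0.961), but it fell by 0.28 and was called with upper-quartile scaling (FDR = 0.00757), which lowered the median gene by 0.28 in this comparison. From NPCs to PSA-NCAM+ cells Pbrm1 rose by 0.50 (FDR = 0.00303), Mll5 by 0.31 (FDR = 0.00724) and Bptf by 0.23 (FDR = 0.0422). The Bptf call was lost without WT NPC library 1 or 3 or WT PSA-NCAM+ library 1 or 2 (0.21 to 0.25), with upper-quartile scaling (0.19) and with no filter on low counts (FDR = 0.0593). From ESCs to NPCs Mll5 rose by 0.22 (FDR = 0.0299), while Bptf and Pbrm1 were not called (0.03 and 0.17, FDR = 0.812 and 0.226). The Mll5 call was lost without any 1 of 5 of the 6 libraries, all but the first WT ESC library (0.13 to 0.22). Of all genes 65.6% were called from ESCs to NPCs, 41.3% from NPCs to PSA-NCAM+ cells and 80.2% between NPCs and neurons.

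Per length, on the scale of the authors' mean RPKM, Bptf was the most abundant of the 3 in WT ESCs (15.9, against 10.0 for Pbrm1 and 5.25 for Mll5). In WT neurons the order was reversed, with Mll5 at 31.9, Pbrm1 at 22.7 and Bptf at 17.4. In slow/slow neurons the values were 30.9, 24.3 and 16.3. These columns are means over replicates and carry no spread.

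In the annotation Bptf spans chr11:107033081-107132127 in GRCm38 with no overlapping gene. Pbrm1 (chr14:31019138-31121592) shares 33461 bases with Smim4 on the other strand, and Mll5 (chr5:23434441-23504235) shares 972 bases with Srpk2, also on the other strand. Whether counting used the strand is not given in the sources used here, so reads from these stretches could be shared. The genes whose log2 CPM was most like each member over the 24 libraries were Mapk1ip1l, Tpp2 and Fat1 for Bptf (r = 0.946, 0.930 and 0.921), Hdx, Prpf4b and Pdzd8 for Pbrm1 (0.947, 0.945 and 0.942) and Rnf214, Lrrtm1 and Klhl9 for Mll5 (0.992, 0.991 and 0.991).

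Genes of related complexes and families are given as lists, with values in the order ESCs, NPCs, PSA-NCAM+ cells, neurons. A listed gene need not encode a partner of Bptf, Pbrm1 or Mll5. Of 13 NURF and ISWI genes 7, 6, 7 and 7 were higher and 0, 3, 2 and 1 lower in slow/slow cells. Their median log2 changes were 0.27, 0.26, 0.33 and 0.21, against -0.02, 0.01, -0.01 and -0.06 over all genes. Over all genes tested, 18.5%, 29.3%, 28.6% and 23.4% were higher and 21.9%, 27.4%, 28.1% and 28.4% lower at these stages. The ATPase Smarca5, the motor of ISWI complexes, rose most in NPCs (227 ± 5.88 to 453 ± 48.6 CPM, log2 change 1.00, FDR = 5.16e-06, edgeR) and Baz1a, an ISWI partner, fell most there (67.9 ± 3.64 to 33.7 ± 3.72 CPM, -1.01, FDR = 4.72e-07). In neurons Baz1a had the largest rise (13.7 ± 2.21 to 35.0 ± 1.18 CPM, 1.35, FDR = 1.12e-08) and Rsf1, another ISWI partner, the 1 fall (118 ± 2.21 to 84.5 ± 2.21 CPM). In ESCs the largest rise was Hmgxb4 (62.9 ± 2.66 to 117 ± 1.81 CPM), and in PSA-NCAM+ cells it was Smarca1, the other ISWI ATPase (17.5 ± 4.83 to 37.0 ± 2.37 CPM), with Baz2a as the largest fall (402 ± 27.4 to 310 ± 18.7 CPM).

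Of 28 PBAF and BAF genes 8, 15, 19 and 5 were higher and 4, 3, 3 and 7 lower at these stages, against the same shares of all genes (18.5%, 29.3%, 28.6% and 23.4% higher; 21.9%, 27.4%, 28.1% and 28.4% lower). The medians were 0.08, 0.32, 0.35 and 0.01. Bcl11a, a BAF-associated zinc-finger protein of neurons, rose most in ESCs (0.106 ± 0.0660 to 0.658 ± 0.146 CPM) and in NPCs (0.247 ± 0.106 to 8.52 ± 0.854 CPM, log2 change 5.09, FDR = 3.18e-08, edgeR), from a level near 0. Actl6b, the neuronal actin-like subunit, rose most in PSA-NCAM+ cells but stayed low (0.100 ± 0.0652 to 0.639 ± 0.525 CPM). Brd7, a PBAF bromodomain subunit like Pbrm1, rose most in neurons (92.2 ± 1.47 to 150.0 ± 3.28 CPM, 0.70, FDR = 2.55e-08) and Ss18l1, the neuronal BAF subunit also called CREST, fell most (151 ± 9.37 to 73.9 ± 2.91 CPM, -1.03, FDR = 2.66e-07). Arid2, the PBAF-specific subunit, had the largest fall in ESCs (104 ± 9.93 to 76.5 ± 5.37 CPM). Dpf3 had the largest fall in NPCs and in PSA-NCAM+ cells, at mean levels of at most 1.42 CPM.

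Of 18 genes of the KMT2 family and its cofactors, 17 were tested. At the 4 stages 4, 5, 5 and 1 were higher and 4, 2, 3 and 1 lower, where 18.5%, 29.3%, 28.6% and 23.4% of all genes were higher and 21.9%, 27.4%, 28.1% and 28.4% lower, with medians of -0.01, 0.03, -0.00 and -0.13. The methyltransferase gene Mll2 had the largest fall in ESCs (214 ± 8.17 to 141 ± 16.9 CPM, log2 change -0.60, FDR = 0.00207, edgeR) and in NPCs (157 ± 20.4 to 115 ± 1.43 CPM). Hcfc1, a cofactor of these complexes, rose most in NPCs (409 ± 37.1 to 670 ± 14.9 CPM, 0.71, FDR = 2.6e-05). Dpy30, a core subunit, rose most in ESCs (109 ± 9.07 to 154 ± 25.1 CPM) and in PSA-NCAM+ cells (46.7 ± 8.34 to 67.5 ± 12.4 CPM), where Hcfc2 had the largest fall (13.1 ± 1.38 to 8.45 ± 1.59 CPM). In neurons the 1 rise was Ash2l, a core subunit (135 ± 2.19 to 206 ± 3.12 CPM), and the 1 fall Mll3, a methyltransferase of the family (104 ± 4.56 to 73.4 ± 9.10 CPM).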

How the data were processed

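Poly(A) RNA was sequenced from 24 samples (8 groups of 3), per the labels with a stranded kit. The deposited tables hold, as the authors made them, unnormalised counts for each gene with mean RPKM per group, and percent spliced in (PSI) with inclusion and exclusion reads and quality scores per sample from vast-tools on mm9. The gene counts also came from vast-tools; whether they used strand is not given in the sources used here. Groups came from the sample labels. The 3 genes, their lead exons and the gene lists were chosen with earlier results of these data known.

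Gene counts were tested with edgeR 4.0.16 (quasi-likelihood, filterByExpr, TMM, all 24 samples, 16627 genes, Benjamini-Hochberg, FDR under 0.05). Exons were kept if every sample compared had coverage score SOK, OK or LOW and balance score OK or B1, the study's filters. Unlike in the study, events typed as microexons were not filtered on balance. A posterior test in the manner of vast-tools diff pooled beta posteriors over replicates, and called exons with a probability of the sign above 0.95 (the study's threshold read in this form) and a difference in mean PSI above 10 points. Reads are not independent molecules, so intervals cover counting error only. Limma 3.58.1 on the logit (0.5 reads added), DESeq2 1.42.0, other scalings and filters, a replicate block and leaving out libraries were alternatives. The scripts were checked on simulated data. The study's methods name independent differentiation experiments as replicates of ESCs, NPCs and neurons; for PSA-NCAM+ cells p-values measure the spread between samples, which may be technical. Deviations of same-numbered samples correlated at 0.40 to 0.54 in PSA-NCAM+ cells and at -0.08 to 0.07 in the other comparisons. The main tests, those of PSA-NCAM+ cells included, did not pair samples. The replicate number entered only the alternatives with a block. Named exons were the lead exons and every other exon of the 3 genes called in 1 or more of 7 comparisons; of each list the largest called rise and fall per stage were named. The exons and genes most alike to each member were the 3 with the highest Pearson r over the 24 samples, of which 1 is not reported here.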

Additional observations from a re-analysis of the deposited data

Results flagged for a closer look

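The genotype effect differed between neurons and NPCs for the expression of all 3 genes, by -0.94 (log2) for Pbrm1, -0.77 for Bptf and -0.59 for Mll5 (edgeR interaction, FDR = 0.000127, 4.19e-05 and 0.000401). That test called 55.1% of all genes. The genotype effect on inclusion also differed between these stages for 4 exons, by 38.0 points for the Bptf 174-nt exon, -15.7 points for the Bptf 162-nt exon, 21.4 points for the Pbrm1 96-nt exon and -17.6 points for the Pbrm1 45-nt exon (limma on the logit, FDR = 0.000396, 0.00194, 0.0201 and 0.0224). Of all exons 3.48% were called. Both tests were added after the values were seen, and the NPC comparison had also named Bptf and Pbrm1.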

How the results depend on the processing

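Of 132 values of member expression under another scaling, filter, test, sample set or block, 121 kept their direction and side of the threshold. With upper-quartile scaling the Bptf change in neurons was -0.089 and the WT change from NPCs to PSA-NCAM+ cells 0.19 (both no longer called), the WT change from NPCs to neurons -0.28 (now called), and the Pbrm1 change in neurons 0.10, of opposite sign. With no low-count filter the WT change of Bptf from NPCs to PSA-NCAM+ cells was 0.23 and no longer called. In fits of the 6 samples compared, the PSA-NCAM+ changes of Mll5 (0.40) and Bptf (0.33) were no longer called, those of Mll5 in neurons (-0.10) and of Pbrm1 from WT ESCs to NPCs (0.20) were, and Pbrm1 in neurons was 0.034, of opposite sign. The replicate block over all samples changed no call on expression (Bptf in PSA-NCAM+ cells 0.35). In the 6 PSA-NCAM+ samples alone, chosen after seeing the data, the block gave Bptf 0.32, not called. The cause of these changes was not tested.

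Leaving out 1 library gave Bptf changes of 0.23 to 0.37 in ESCs, -0.28 to -0.20 in neurons, and in WT -0.065 to 0.075 from ESCs to NPCs, 0.21 to 0.28 from NPCs to PSA-NCAM+ cells and -0.0475 to 0.025 from NPCs to neurons. It gave Mll5 changes of -0.11 to 0.041 in ESCs and 0.13 to 0.28 from WT ESCs to NPCs, where the call was lost without any 1 of 5 libraries (all but the first WT ESC library).

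The number of member exons called was 1 to 2 in NPCs, 1 to 3 in PSA-NCAM+ cells, 3 to 6 in neurons, 1 to 2 from WT ESCs to NPCs and 1 to 2 from WT NPCs to PSA-NCAM+ cells when 1 library was left out. It was 3 in PSA-NCAM+ cells without both first libraries, a setting chosen after seeing the data, and 2 in neurons at a minimum of 15 points. Limma called 0 in PSA-NCAM+ cells, 3 in neurons and 0 from WT NPCs to PSA-NCAM+ cells, and with the replicate block 1, 3 and 0. Of all exons, limma called 0 of 24333 in PSA-NCAM+ cells and 0 of 24738 from WT NPCs to PSA-NCAM+ cells. With the block it called 49 and 0 of them. Signs turned on leaving out 1 library for small, uncalled differences: the Mll5 126-nt exon at -0.48 to 1.61 points in NPCs, -1.997 to 3.59 in PSA-NCAM+ cells and -0.64 to 2.57 from WT ESCs to NPCs, the Pbrm1 104-nt event at -1.16 to 1.94 in NPCs, the 96-nt exon at -5.32 to 3.43 in ESCs and the 45-nt exon at -0.61 to 3.15 from WT ESCs to NPCs.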
